A study of Mus musculus with 9 samples.

Results

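Hormad2, Tmem178, Tmem243, Afap1l1, Serpinf1 and Ly6k are 6 mouse genes. Their RNA was found in every library of leukemia cells with a blank retrovirus and hardly in leukemia cells with an IL-34 retrovirus. The genes were chosen by their measured levels in these libraries. A gene had to be at 10 TPM or more (TPM is the share of transcripts after division by their length) in each of the 6 MA9 libraries, whether MA9-c-Kit- or MA9-c-Kit+, and to have a mean under 1 TPM in the 3 libraries of MA9-IL-34 cells. Of 55536 genes in the table, 12 met both thresholds. The 6 genes described here were picked from these by name, to leave aside leukemia regulators and receptors. The other 6 are S100a4, Mef2c, Il6st, Dusp6, Mecom and Abcb1b, of which S100a4 and Abcb1b were left aside although neither is a receptor or a regulator of this kind by its usual role. The difference between MA9-IL-34 cells and the other cells therefore chose these genes, and it is given as a description without a test.

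All 3 groups are leukemias of mouse blood cells driven by the fusion oncogene MLL-AF9. The fusion was carried with GFP by a retrovirus into marker-negative (Lin-) marrow cells of C57B6.SJL donors. MA9 cells received a second, blank virus with BFP, and MA9-IL-34 cells a virus with IL-34 and BFP, a cytokine that signals through the receptor CSF1R. Cells with both colors were sorted, 100000 of them were transplanted into each unirradiated C57BL/6J mouse of 6 to 8 weeks, and RNA was taken from bone marrow cells on day 18. MA9 cells were divided by the surface receptor c-Kit into MA9-c-Kit+ cells and cells without it, MA9-c-Kit-, and the labels describe the MA9-IL-34 libraries as c-kit+ cells. Each group has 3 libraries, and no source says whether different mice gave them, so the p-values below cover the spread of these samples alone, and that spread may be technical.

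The 6 genes belong to unrelated families. Hormad2 encodes a HORMA-domain protein that coats unpaired chromosome axes in mouse meiosis. Ly6k encodes a small membrane-anchored protein of the Ly6 family that mouse sperm need to pass through the female tract, together with its partner TEX101. Serpinf1 encodes pigment epithelium-derived factor (PEDF), a secreted serpin that does not inhibit proteases and restrains the growth of blood vessels. Tmem178 encodes a membrane protein of the endoplasmic reticulum that dampens calcium entry and NFATc1 activity in mouse osteoclast precursors, which are myeloid cells. Afap1l1 encodes an actin filament-associated adaptor, known from human cells to bind cortactin at podosomes. Tmem243 encodes a small membrane protein about which little is known.

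Promoter sequences are shown because the genes share the pattern by which they were chosen. The sequences are those of the reference, not read from these cells. RefSeq promoters of build GRCm38.p6, 250 bases before to 50 bases after the start, were matched for 4 of the 6 genes, Hormad2 (chr11:4441033-4441332, minus strand), Tmem178 (chr17:80944382-80944681, plus strand), Tmem243 (chr5:9100487-9100786, plus strand) and Serpinf1 (chr11:75422574-75422873, minus strand). Each is written from 5′ to 3′ along the gene, with every CG dinucleotide, the usual site of DNA methylation, in capitals.
Hormad2: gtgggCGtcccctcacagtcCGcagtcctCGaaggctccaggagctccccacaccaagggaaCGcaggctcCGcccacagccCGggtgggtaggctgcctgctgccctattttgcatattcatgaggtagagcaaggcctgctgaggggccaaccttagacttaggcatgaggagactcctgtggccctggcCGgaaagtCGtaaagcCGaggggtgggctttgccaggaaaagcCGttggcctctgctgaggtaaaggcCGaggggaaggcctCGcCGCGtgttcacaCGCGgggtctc
Tmem178: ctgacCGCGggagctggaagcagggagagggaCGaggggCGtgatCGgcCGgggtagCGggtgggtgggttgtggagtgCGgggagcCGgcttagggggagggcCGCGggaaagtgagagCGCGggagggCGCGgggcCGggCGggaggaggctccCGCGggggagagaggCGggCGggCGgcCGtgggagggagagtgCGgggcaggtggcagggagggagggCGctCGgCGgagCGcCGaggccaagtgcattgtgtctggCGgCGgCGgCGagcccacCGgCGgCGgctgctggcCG
Tmem243: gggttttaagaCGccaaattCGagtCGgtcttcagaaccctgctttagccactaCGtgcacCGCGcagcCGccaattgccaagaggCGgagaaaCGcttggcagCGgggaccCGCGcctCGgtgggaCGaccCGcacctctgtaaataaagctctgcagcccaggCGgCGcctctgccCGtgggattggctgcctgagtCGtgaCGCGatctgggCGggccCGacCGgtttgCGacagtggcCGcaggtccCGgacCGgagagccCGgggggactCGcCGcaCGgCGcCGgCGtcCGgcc
Serpinf1: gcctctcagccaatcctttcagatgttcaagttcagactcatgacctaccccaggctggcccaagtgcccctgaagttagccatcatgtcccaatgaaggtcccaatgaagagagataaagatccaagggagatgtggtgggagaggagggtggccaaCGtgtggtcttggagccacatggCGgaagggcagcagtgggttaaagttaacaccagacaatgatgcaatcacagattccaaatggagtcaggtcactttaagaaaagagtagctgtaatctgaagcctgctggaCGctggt

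The 4 promoters had no CG density in common. Tmem178 held 37 CG dinucleotides and Tmem243 held 36, more than 94.4% and 93.8% of the 32851 promoters of the same length, whose median was 7. Hormad2 held 16 and Serpinf1 held 3. DNA methylation was not measured. The SP1 motif GGGCGG, searched on both strands, was in the promoters of Hormad2 (1 match), Tmem178 (3 matches, of which 2 overlap each other) and Tmem243 (1 match), and in 35.7% of all promoters. Each such match contains 1 of the CG dinucleotides counted above. The CCAAT box (CCAAT) was in those of Tmem243 and Serpinf1, and in 37.4% of all. Only the promoter of Serpinf1 among the 4 held the RUNX motif TGTGGT, with 2 matches, and the GATA motif AGATAA, which are in 16.8% and 11.2% of all promoters. No match was found in the 4 promoters for GAGGAA of ETS factors, TTGCNNAA of C/EBP factors, TGANTCA of AP-1, the E-box CACGTG or the TATA box TATAAA. Of all promoters, 28.3%, 10.8%, 7.81%, 7.15% and 13.6% hold these motifs. No motif searched was in all 4 promoters.

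Kit, which encodes the receptor of the sort, was at 2.33 ± 0.645 TPM for MA9-c-Kit- (SD, n = 3), 107 ± 33.1 TPM for MA9-c-Kit+ (SD, n = 3) and 105 ± 12.3 TPM for MA9-IL-34 (SD, n = 3). Mouse Il34 was listed at 0 in the MA9 libraries and at 0.10 to 0.14 TPM in MA9-IL-34 libraries, so the table does not show the level of the retroviral cytokine. Xist, the RNA of the inactive X chromosome in female cells, was at 0.02 to 0.28 TPM in the 6 MA9 libraries and at 331 to 453 TPM in the MA9-IL-34 libraries. MA9-IL-34 cells thus differ from MA9 cells in Xist as well as in the virus, and for each gene below the IL-34 virus and the origin of the leukemia cannot be told apart. Per the study's methods, the mice were female, and sorted GFP+ leukemia cells received either the blank or the IL-34 virus. The Y-linked genes Ddx3y, Eif2s3y, Kdm5d and Uty were at 0.1 TPM or less in all 9 libraries. Hemoglobin RNA (Hbb-bs) was at 1031 TPM in MA9-c-Kit- replicate 3 and at most 16.2 TPM elsewhere. Mitochondrial transcripts made up 5.10% of MA9-c-Kit+ replicate 2, against 8.79% to 11.1% of the other libraries.

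In every one of the 6 MA9 libraries each of the 6 genes was above 12 TPM, and in MA9-IL-34 libraries the levels were between 0 and 1.19 TPM. The lowest MA9 library exceeded the highest MA9-IL-34 library by 18.6 times for Serpinf1, 19.7 times for Afap1l1, 41.8 times for Tmem243, 41.9 times for Ly6k, 63.5 times for Hormad2 and 144 times for Tmem178. These gaps were set by the choice of the genes. In bulk RNA, fewer cells that express a gene and less RNA of it per cell cannot be told apart. TPM values divide by transcript length, so levels can be set side by side between genes.

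**Figure D1:**
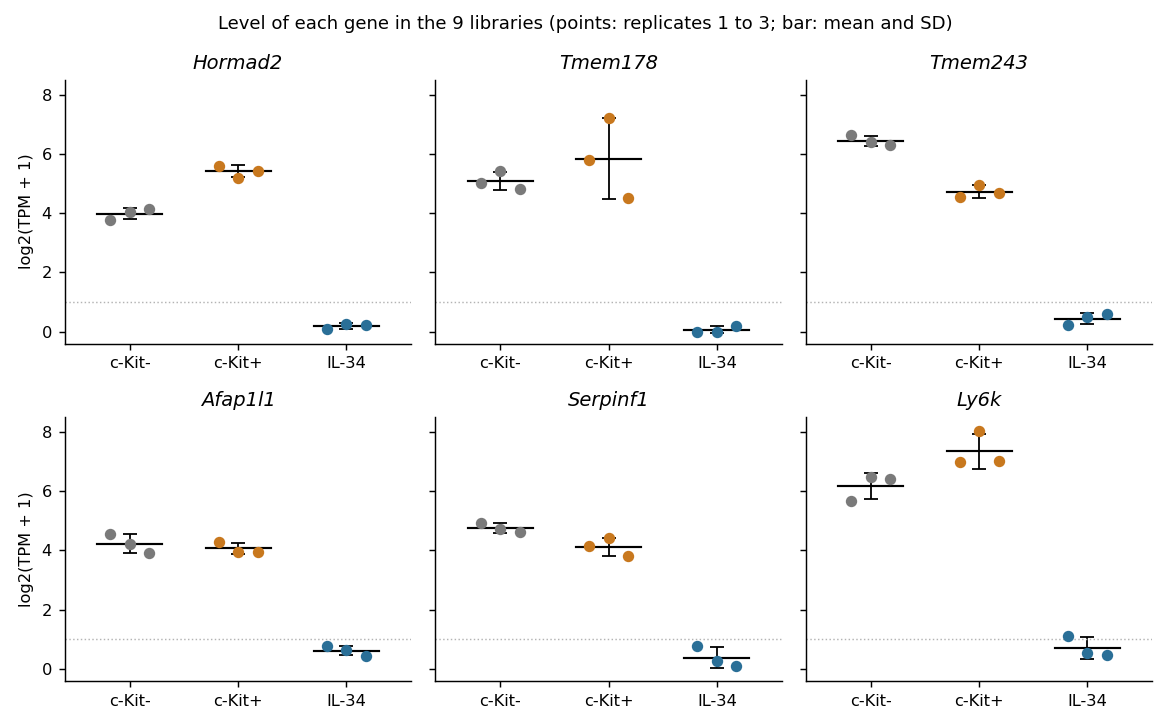
Level of each of the 6 genes on the log2(TPM + 1) scale (vertical axis) in libraries of MA9-c-Kit- (left), MA9-c-Kit+ (middle) and MA9-IL-34 cells (right). Points are replicates 1 to 3 from left to right, bars are the mean and SD of the log2 values, and the dotted line marks 1 TPM. MA9-IL-34 points lie near 0 in all 6 panels, and 1 of them, Ly6k in replicate 1 at 1.19 TPM, lies above the line.

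Hormad2 (ENSMUSG00000020419, chromosome 11 of GRCm38 from 4345814 to 4441105, minus strand, 14 merged exons) was at 12.69, 15.27 and 16.77 TPM in MA9-c-Kit- replicates 1, 2 and 3. It was at 47.6, 35.71 and 41.97 TPM for MA9-c-Kit+ and at 0.06, 0.20 and 0.17 TPM for MA9-IL-34. The 3 groups did not overlap, and the meiotic gene was highest in the c-Kit+ fraction. The mean in MA9-IL-34 cells, 0.143 ± 0.0737 TPM (SD, n = 3), was 0.343% of that in MA9-c-Kit+ cells.

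Ly6k (ENSMUSG00000044678, chromosome 15 from 74796874 to 74799986, minus strand, 4 merged exons), the sperm surface gene, was the most abundant of the 6 in MA9-c-Kit+ cells. Its levels there were 127.13, 259.94 and 128.9 TPM, and those in MA9-c-Kit- cells were 49.87, 87.66 and 83.56 TPM. MA9-IL-34 cells had 1.19, 0.44 and 0.38 TPM, on average 0.390% of the MA9-c-Kit+ level. Of its 829 exonic bases, 395 are shared with Gm17189 on the opposite strand, and the TruSeq RNA v2 kit does not mark strand, so reads of the 2 genes could not be told apart there. Gm17189 was at 0.27 to 0.42 TPM for MA9-c-Kit- and 0.54 to 1.71 TPM for MA9-c-Kit+, and it was listed at 0 in MA9-IL-34 cells.

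Serpinf1 (ENSMUSG00000000753, chromosome 11 from 75409769 to 75422701, minus strand, 9 merged exons), which encodes PEDF, was at 29.61, 25.41 and 23.59 TPM for MA9-c-Kit-. MA9-c-Kit+ libraries had 16.62, 20.46 and 13.01 TPM, all below the MA9-c-Kit- libraries. MA9-IL-34 libraries had 0.70, 0.22 and 0.07 TPM, which spans a factor of 10 within the group. As a share of MA9-c-Kit+ cells the MA9-IL-34 mean was 1.98%.

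Tmem178 (ENSMUSG00000024245, chromosome 17 from 80944632 to 81001816, plus strand, 4 merged exons), the calcium regulator, varied most among the MA9 libraries. It was at 31.05, 41.57 and 27.29 TPM for MA9-c-Kit- and at 54.3, 148.36 and 21.54 TPM for MA9-c-Kit+. The MA9-c-Kit+ libraries spanned a factor of 6.89 and enclosed all MA9-c-Kit- libraries. In MA9-IL-34 cells it was listed at 0 in 2 libraries and was at 0.15 TPM in the third, and no fold is given against this group.

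Afap1l1 (ENSMUSG00000033032, chromosome 18 from 61730261 to 61786702, minus strand, 18 merged exons), the actin adaptor, was the most even across MA9 cells. MA9-c-Kit- libraries had 22.49, 17.62 and 14.21 TPM and MA9-c-Kit+ libraries 18.51, 14.61 and 14.57 TPM, with overlapping ranges. MA9-IL-34 libraries had 0.72, 0.55 and 0.37 TPM, on average 3.44% of the MA9-c-Kit+ level, the highest share that remained among the 6 genes. An antisense gene, 1500015A07Rik, shares 149 of its 3680 exonic bases.

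Tmem243 (ENSMUSG00000079659, chromosome 5 from 9100668 to 9160986, plus strand, 10 merged exons) was the most abundant of the 6 in MA9-c-Kit- cells, at 97.56, 83.79 and 77.99 TPM. It was at 22.18, 29.95 and 24.56 TPM for MA9-c-Kit+ and at 0.17, 0.40 and 0.53 TPM for MA9-IL-34. The 3 groups were separate and followed the order opposite to that of Hormad2 within MA9 cells. Its annotation overlaps Dmtf1 on the opposite strand by 404 of 6841 exonic bases. Dmtf1, a cyclin D-binding transcription factor, was at 22.4 to 23.7 TPM in MA9-IL-34 libraries, so the low level of Tmem243 did not extend to the gene that overlaps it.

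The order of the 6 genes differed between the MA9 fractions. In MA9-c-Kit+ cells it ran from Ly6k (172 ± 76.2 TPM) through Tmem178 (74.7 ± 65.8), Hormad2 (41.8 ± 5.95), Tmem243 (25.6 ± 3.98) and Serpinf1 (16.7 ± 3.73) to Afap1l1 (15.9 ± 2.26; SD, n = 3 each). The ranges of Ly6k and Tmem178, of Tmem178 and Hormad2, and of Serpinf1 and Afap1l1 overlapped. In MA9-c-Kit- cells it ran from Tmem243 (86.4 ± 10.1 TPM) through Ly6k (73.7 ± 20.7), Tmem178 (33.3 ± 7.40), Serpinf1 (26.2 ± 3.09) and Afap1l1 (18.1 ± 4.16) to Hormad2 (14.9 ± 2.06; SD, n = 3 each). Here Tmem243 and Ly6k, Tmem178 and Serpinf1, and Afap1l1 and Hormad2 overlapped. Replicate 2 of MA9-c-Kit+ cells had the highest level of its group for 4 of the 6 genes. This is the library with the low mitochondrial share, and the part of that share in the result was not tested.

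Whether the 6 genes also differ between the c-Kit fractions was not part of their choice, apart from the floor of 10 TPM, and it was tested. Hormad2 and Ly6k were higher in MA9-c-Kit+ than in MA9-c-Kit- cells, Tmem243 was lower, and 3 genes did not pass. A call required both a fold of 2 or more and an adjusted p below 0.05, from limma on log2(TPM + 1) with Benjamini-Hochberg adjustment over the 13722 genes tested. Over all genes 14.8% were called in this comparison, 5.66% higher and 9.15% lower, beside 3 of the 6 genes. The spread behind each standard error came from all 9 libraries, including those of MA9-IL-34, which the choice held near 0 for the 6 genes.

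**Figure D2:**
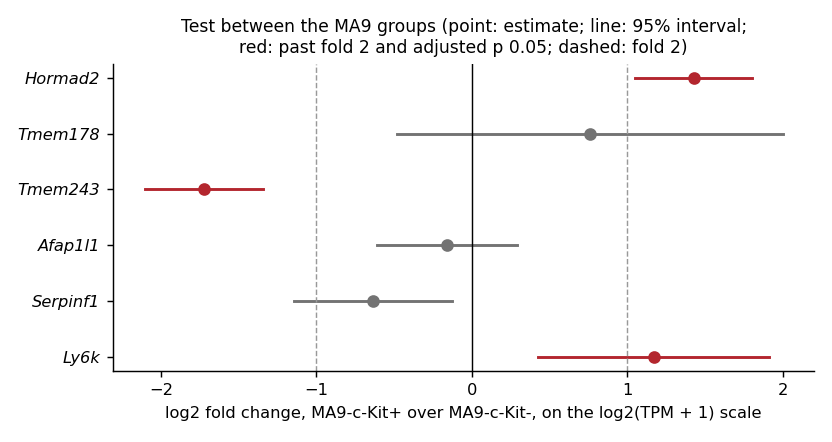
Log2 fold change of each of the 6 genes of MA9-c-Kit+ over MA9-c-Kit- cells on the log2(TPM + 1) scale (horizontal axis), with n = 3 libraries per group. Points are estimates, lines are 95% intervals from limma, and red marks genes past both thresholds. Hormad2 and Ly6k lie to the right, Tmem243 to the left, and the line of Tmem178 is the widest, from -0.48 to 2.00.

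Hormad2 differed by 1.43 on the log2 scale (standard error 0.17, adjusted p = 0.000346, limma), 2.80 times higher in TPM. Tmem243 had -1.72 (standard error 0.17, adjusted p = 0.000134, limma), with MA9-c-Kit- cells 3.38 times higher in TPM. These 2 calls held under all alternatives and without any 1 library. Ly6k had 1.17 (standard error 0.33, adjusted p = 0.0211, limma), 2.33 times in TPM, and its groups did not overlap. Its call was lost without a filter on low genes (adjusted p = 0.0549, limma), with a pseudocount of 0.1 (adjusted p = 0.0551, limma), without MA9-c-Kit+ replicate 2 (log2 fold change 0.83) and without MA9-c-Kit- replicate 1 (0.91).

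Serpinf1 did not pass, with -0.64 on the log2 scale (standard error 0.23, adjusted p = 0.0513, limma), with a 95% interval from -1.14 to -0.13, although all MA9-c-Kit+ libraries were below all MA9-c-Kit- libraries. Tmem178 had 0.76 (standard error 0.55, adjusted p = 0.308, limma) with an interval from -0.48 to 2.00. It passed without MA9-c-Kit+ replicate 3 (1.43, adjusted p = 0.0203, limma) and was at 0.06 without replicate 2, so its value rests on these libraries. Afap1l1 had -0.16 (standard error 0.20, adjusted p = 0.552, limma), and in this fit over all 9 libraries its interval from -0.61 to 0.29 excludes a fold of 2 in either direction. The c-Kit fractions thus divided the 6 genes, with Hormad2 and Tmem243 at either end. The ranges of the 2 MA9 groups did not overlap for 4 of the 6 genes, as for 45.6% of all genes tested.

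On the log2(TPM + 1) scale the difference of MA9-IL-34 from MA9-c-Kit+ cells was -6.64 for Ly6k, -5.77 for Tmem178, -5.22 for Hormad2, -4.28 for Tmem243, -3.74 for Serpinf1 and -3.45 for Afap1l1. From MA9-c-Kit- cells it was -6.00 for Tmem243, -5.47 for Ly6k, -5.01 for Tmem178, -4.38 for Serpinf1, -3.79 for Hormad2 and -3.61 for Afap1l1. Both comparisons use the same MA9-IL-34 libraries. The choice of the genes fixed these directions, and over all genes tested 7.24% were called against MA9-c-Kit+ cells (3.38% lower) and 24.0% against MA9-c-Kit- cells (12.7% lower).

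**Figure D3:**
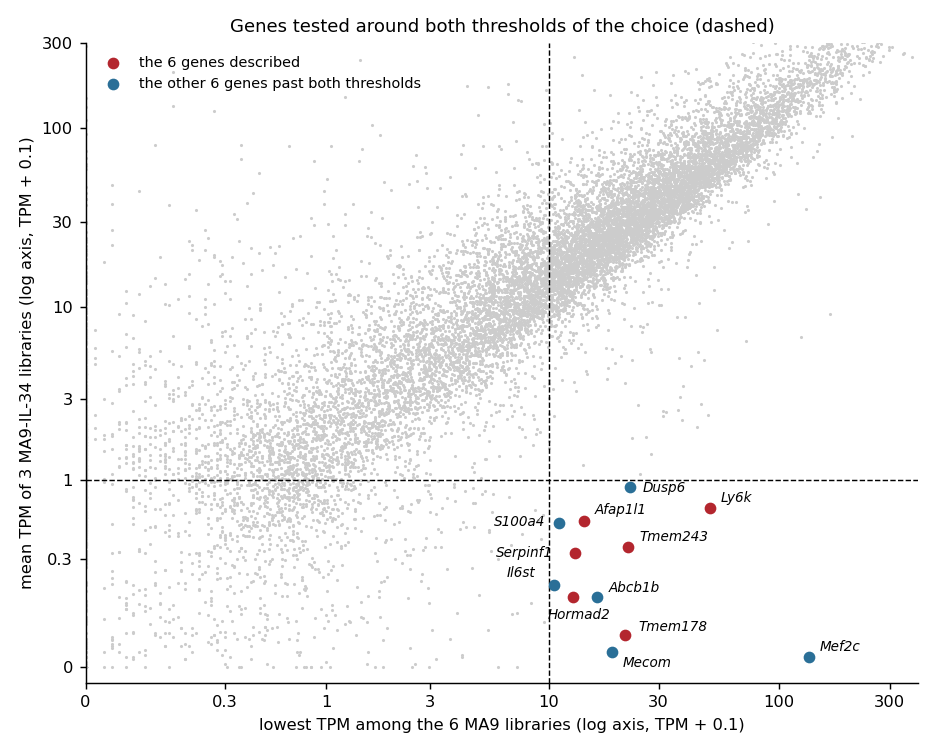
Lowest TPM among the 6 MA9 libraries (horizontal) against the mean TPM of the 3 MA9-IL-34 libraries (vertical) for the genes tested, both on a log axis of TPM + 0.1, with the thresholds of 10 and 1 TPM dashed. Each grey point is 1 gene and the most abundant genes lie outside the axes. Red points are the 6 genes described, blue points the other 6 genes past both thresholds, and the lower right field holds no more than these 12.

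Few genes lay past both thresholds, and their number depended on where these were set. The number was 35 at a floor of 5 TPM and 18 at a mean under 2 TPM, in place of 12. Of 6944 genes at the floor of 10 TPM in the MA9 libraries, 12 (0.173%) had a mean under 1 TPM for MA9-IL-34. Nearest inside the floor were Il6st (lowest MA9 library 10.5 TPM), S100a4 (11.01 TPM) and Hormad2 (12.7 TPM), and nearest outside were Fam174b (9.47 TPM), Smagp (9.41 TPM) and Tln2 (9.23 TPM). Nearest inside the mean of 1 TPM were Dusp6 (0.903 TPM), Ly6k (0.67 TPM) and Afap1l1 (0.547 TPM), and nearest outside were Znf41-ps (1.08 TPM), Zfp993 (1.22 TPM) and Xdh (1.43 TPM). A floor of 20 TPM would leave Ly6k, Tmem178 and Tmem243 among 5 genes, and a mean under 0.5 TPM would leave out Afap1l1 and Ly6k. The same pattern around another group was found for 0 genes silent in MA9-c-Kit+ cells and 3 genes silent in MA9-c-Kit- cells.

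The other 6 genes of the same pattern are better known in blood. Mef2c, a myeloid and lymphoid transcription factor, was at 134 to 271 TPM in MA9 libraries and at most 0.02 TPM in MA9-IL-34 libraries. Mecom, a regulator of blood stem cells, was at 18.8 to 27.0 TPM against at most 0.06 TPM, and Dusp6, a phosphatase that limits ERK signaling, at 22.5 to 31.4 TPM against at most 1.16 TPM. Il6st, the shared receptor chain gp130, and S100a4, a calcium-binding protein, were higher in MA9-c-Kit- cells (means 57.6 and 635 TPM) than in MA9-c-Kit+ cells (13.4 and 19.6 TPM). Abcb1b, a drug efflux pump, was at 16.3 to 31.7 TPM in MA9 libraries.

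Stromal and endothelial cells are known to express Serpinf1 and Afap1l1. The leukemia cells of all 3 groups were isolated by flow cytometry before the measurement, per the study's methods, a step that would remove such cells, and markers of other cells were read in the same libraries. Of 12 stromal and osteoblast markers, 9 for MA9-c-Kit-, 10 for MA9-c-Kit+ and 10 for MA9-IL-34 were under 1 TPM in every library, among them the collagens Col1a2 and Col3a1, while Col1a1 reached 1.05 TPM in MA9-c-Kit- replicate 2 and was under 1 TPM elsewhere. Their summed level was 62.0 to 70.8 TPM for MA9-c-Kit-, 24.8 to 53.7 TPM for MA9-c-Kit+ and 35.5 to 40.8 TPM for MA9-IL-34, carried mostly by Lepr. Pdgfrb, a growth factor receptor of stromal cells, was highest in MA9-IL-34 cells instead, at 1.42 ± 0.275, 2.20 ± 0.889 and 10.9 ± 0.756 TPM in the same order of groups (SD, n = 3 each). It was higher in MA9-IL-34 cells in both comparisons, by 1.93 on the log2 scale against MA9-c-Kit+ (adjusted p = 0.000531, limma) and by 2.30 against MA9-c-Kit-. Of 7 endothelial markers 6 were under 1 TPM in every library of each group, Cdh5 and Kdr included, and Pecam1 carried the sum. Erythroid markers summed to 1.47 to 2.20 TPM for MA9-IL-34, 4.35 to 28.4 TPM for MA9-c-Kit+ and 11.3 to 1814 TPM for MA9-c-Kit-. Within MA9-c-Kit- cells Hormad2 was the 1 gene of the 6 with its highest level in replicate 3, the library with the most hemoglobin RNA.

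The 7 macrophage markers did not go one way. Their summed level was carried by Csf1r and Cd68. It was 686 to 825 TPM for MA9-c-Kit-, 188 to 449 TPM for MA9-c-Kit+ and 97.9 to 116 TPM for MA9-IL-34. The means of Tmem243, Serpinf1 and Afap1l1 share this order, and those of Hormad2, Tmem178 and Ly6k do not. The choice of the genes put MA9-IL-34 lowest for all of them, so the order depends only on MA9-c-Kit+ against MA9-c-Kit-. In that comparison Tmem243 was called lower, while Serpinf1 and Afap1l1 were not called (adjusted p = 0.0513 and 0.552, limma). Hormad2 and Ly6k were called higher there, and Tmem178 was not called. The complement genes C1qa and C1qc were lowest in MA9-c-Kit- cells, with means of 0.267 and 0.24 TPM, and were at 1.74 and 1.64 TPM for MA9-c-Kit+ and 2.29 and 3.58 TPM for MA9-IL-34. Adgre1, which encodes F4/80, was at 63.8, 19.8 and 42.6 TPM in the same order of groups. T and NK cell markers summed to 0.59 to 1.09, 26.3 to 76.7 and 154 to 210 TPM in the same order of groups, carried by Nkg7, with the other 4 of 5 under 1 TPM, and B cell markers to 19.6 to 26.9, 32.1 to 41.7 and 27.98 to 31.4 TPM. The part of such cells in the levels was not tested.

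Genes next to the 6 were read to see how far along the chromosome the low level in MA9-IL-34 cells reached. The 5 nearest protein-coding genes on each side gave 60 neighbors, of which 34 were expressed enough to be tested. One of the 34, Abcb1b near Tmem243, met the thresholds of the choice itself and is left out of the counts here. Against MA9-c-Kit+ cells 1 of the other 33 was lower in MA9-IL-34 cells (3.03%, beside 3.38% of all genes), D730001G18Rik near Ly6k, and 0 were higher (beside 3.86%). At an unadjusted p under 0.05 (limma) 5 of the 33 were lower (15.2%, beside 11.6% of all genes) and 0 were higher (beside 14.4%).

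**Figure D4:**
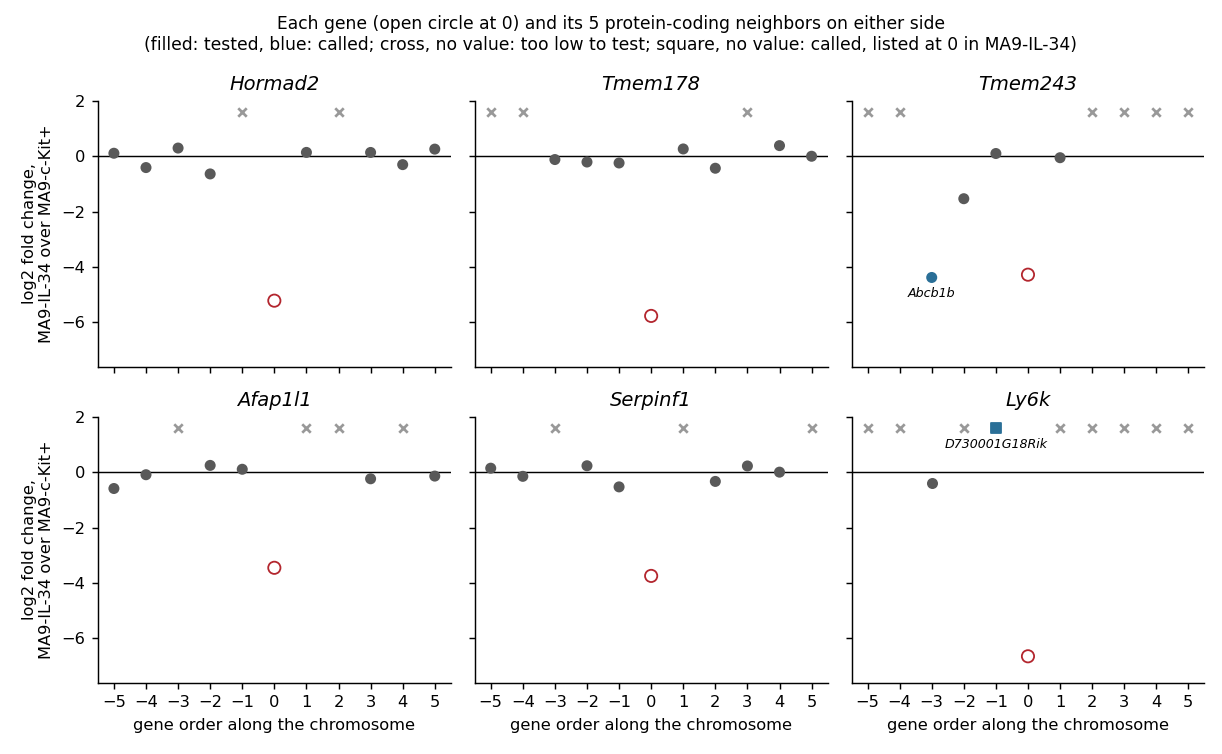
Log2 fold change of MA9-IL-34 over MA9-c-Kit+ cells (vertical) of each of the 6 genes (open circle, a description) and its 5 protein-coding neighbors on either side in chromosome order (horizontal). Filled circles are tested genes and blue marks a call. Crosses were too low to test and the square, D730001G18Rik, is listed at 0 in MA9-IL-34 cells, and neither is placed by value. Most filled circles lie near 0 beside an open circle under -3.

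Tmem243 has Abcb1b in its stretch of the chromosome, while the tested genes between them were not called. Abcb1b, 234 kb away, was at 17.42, 18.67 and 17.24 TPM for MA9-c-Kit-, 22.11, 31.72 and 16.27 TPM for MA9-c-Kit+ and 0.39, 0.01 and 0.03 TPM for MA9-IL-34. It is 1 of the 12 genes of the pattern, so its difference is a description too. Crot, a carnitine acyltransferase of peroxisomes that lies between Abcb1b and Tmem243, was at 22.8 ± 5.57 TPM for MA9-c-Kit+ and 23.9 ± 0.264 TPM for MA9-IL-34 (SD, n = 3 each) and was not called (adjusted p = 0.821, limma). Dmtf1, which overlaps Tmem243, was at 18.5 to 32.2 TPM in MA9-c-Kit+ libraries and 22.4 to 23.7 TPM in MA9-IL-34 libraries and was not called (adjusted p = 0.898, limma). Abcb4, a phospholipid transporter between Abcb1b and Crot, was at 1.02 to 5.12 TPM in MA9-c-Kit+ libraries and 0.04 to 0.12 TPM in MA9-IL-34 libraries, with no overlap, and did not pass (adjusted p = 0.307, limma). Its highest value, 26.2 TPM, was in MA9-c-Kit- replicate 3.

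Ly6k has silent or nearly silent neighbors on both sides, and 2 of its 10 could be tested. D730001G18Rik, 18.0 kb away, was at 2.71, 0.99 and 2.22 TPM for MA9-c-Kit+ and 0.94, 1.18 and 2.39 TPM for MA9-c-Kit-, and was listed at 0 in all 3 MA9-IL-34 libraries (adjusted p = 0.00808 and 0.00538, limma). Lynx1, a Ly6-family modulator of nicotinic receptors, was at 0.46 ± 0.282 TPM in MA9-c-Kit+ and 0.12 ± 0.0954 TPM for MA9-IL-34 (SD, n = 3 each) and was not called against MA9-c-Kit+ cells (adjusted p = 0.304, limma). The nearest genes on the other side, Gml and Gml2, had 9.77 and 10.3 TPM in replicate 3 of MA9-c-Kit- cells, at most 2.32 TPM in the other MA9 libraries, and were listed at 0 in MA9-IL-34 libraries.

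No tested neighbor of the other 4 genes was called against MA9-c-Kit+ cells. None of the 8 tested neighbors of Hormad2 was called in either comparison with MA9-IL-34 cells. Mtmr3, a lipid phosphatase 39.8 kb away, was at 56.4 ± 2.94 TPM in MA9-c-Kit+ and 62.1 ± 4.24 TPM for MA9-IL-34 (SD, n = 3 each). Beside Afap1l1, Grpel2, a mitochondrial co-chaperone 3.94 kb away, was at 12.3 ± 3.18 and 13.1 ± 1.22 TPM (SD, n = 3 each), with an adjusted p of 0.793 (limma). Beside Serpinf1, the methyltransferase gene Smyd4, 4.06 kb away, was at 7.29 ± 0.390 and 4.81 ± 1.02 TPM (SD, n = 3 each), with an adjusted p of 0.120 (limma). Beside Tmem178, Thumpd2, 24.5 kb away, was at 12.3 ± 0.974 and 15.0 ± 2.01 TPM (SD, n = 3 each), with an adjusted p of 0.345 (limma).

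Against MA9-c-Kit- cells more neighbors passed, as more of all genes did. Of the 33 other than Abcb1b, 7 were lower (21.2%, beside 12.7% of all genes) and 3 were higher (9.09%, beside 11.3%). Among the 7 were Cdkl4 and Slc8a1 near Tmem178, Arhgef37 near Afap1l1, Wdr81 near Serpinf1, and Lynx1 and D730001G18Rik near Ly6k. Arhgef37, a guanine nucleotide exchange factor, was at 88.6 ± 25.4 TPM for MA9-c-Kit- and already at 0.633 ± 0.263 TPM for MA9-c-Kit+ (SD, n = 3 each). For 6 of the 7, all but D730001G18Rik, the level of MA9-IL-34 cells was not called against MA9-c-Kit+ cells. The 3 higher neighbors were Thumpd2, Pcyox1l and Tlcd2, and Pcyox1l was lost without MA9-c-Kit- replicate 3, MA9-IL-34 replicate 1 or MA9-IL-34 replicate 3 (adjusted p = 0.0588, 0.0551 and 0.0600, limma). Wdr81 was at -0.98 without MA9-c-Kit- replicate 1, short of the fold of 2.

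Genes of the same families and pathways were read next, from 5 lists. Hormad1, Tmem178b and Afap1l2 were at 0.04 TPM or less in each of the 9 libraries, and Serpinf2, the antiplasmin gene 9.03 kb from Serpinf1, at 0.03 to 0.77 TPM. Afap1, the Src-binding paralog of Afap1l1, was at 1.89, 1.70 and 1.07 TPM for MA9-c-Kit-, 14.25, 10.4 and 8.17 TPM for MA9-c-Kit+ and 25.47, 22.58 and 26.62 TPM for MA9-IL-34. The 3 groups of Afap1 did not overlap, and its highest group was MA9-IL-34, where the choice set Afap1l1 under 1 TPM. Between the MA9 groups Afap1 was higher in MA9-c-Kit+ cells (log2 fold change 2.21, adjusted p = 0.000134, limma), while Afap1l1 was not called. Against MA9-c-Kit+ cells Afap1 was higher in MA9-IL-34 cells, with 1.14 on the log2 scale (standard error 0.22 and adjusted p = 0.00821, limma), and without MA9-c-Kit+ replicate 3 it was at 0.97, under the fold of 2.

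**Figure D5:**
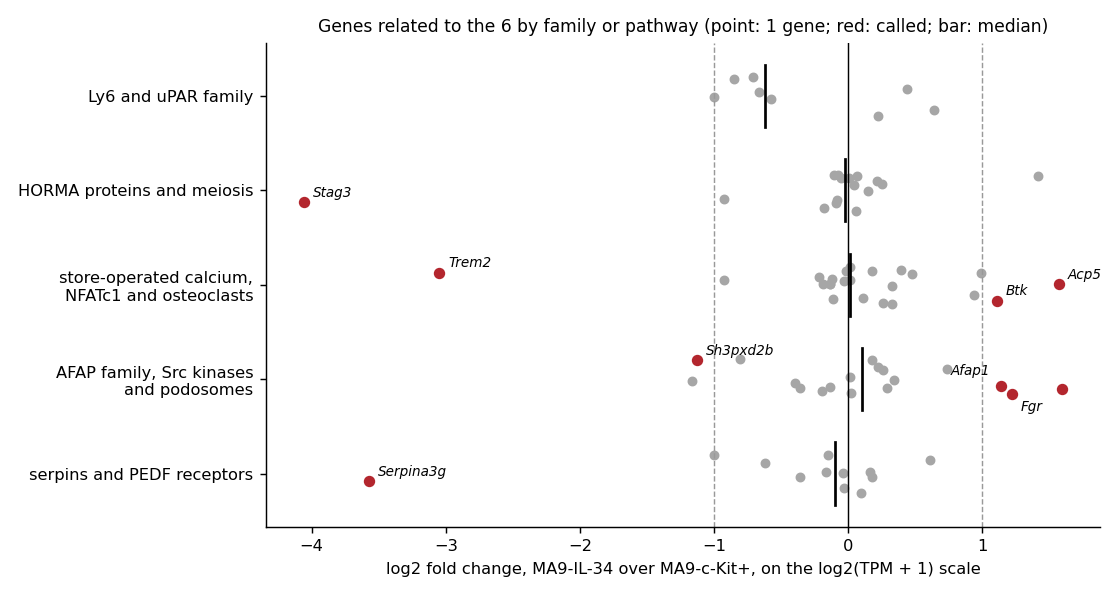
Log2 fold change of MA9-IL-34 over MA9-c-Kit+ cells (horizontal, log2(TPM + 1) scale) of the tested genes of 5 lists related to the 6 genes by family or pathway. Each point is 1 gene, red marks genes past both thresholds (some labeled), the black bar is the median of the list, and dashed lines mark a fold of 2. Stag3, Serpina3g and Trem2 lie under -3, and most other points lie within a fold of 2.

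Of 16 tested genes of HORMA proteins and meiosis, 1 was lower and 0 were higher in MA9-IL-34 cells than in MA9-c-Kit+ cells. Of all genes, 3.38% were lower and 3.86% higher. The lower gene was Stag3, a cohesin subunit of meiosis, at 45.8, 59.64 and 48.72 TPM for MA9-c-Kit-, 60.07, 46.82 and 82.8 TPM for MA9-c-Kit+ and 3.62, 2.39 and 2.37 TPM for MA9-IL-34. In MA9-IL-34 cells Stag3 differed from MA9-c-Kit+ cells by -4.06 on the log2 scale (standard error 0.22, adjusted p = 7.51e-06, limma), and it stayed above 1 TPM. The low level of Hormad2 there was set by its choice. The median of the list was -0.02, beside 0.01 over all genes. Against MA9-c-Kit- cells Stag3 was again lower, and Trip13, the ATPase that remodels HORMA proteins, and Syce2, of the synaptonemal complex, were higher. Of all genes, 12.7% were lower and 11.3% higher in that comparison. Without MA9-c-Kit- replicate 1 the value of Trip13 was 0.82, under the fold of 2.

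Of 8 tested genes of the Ly6 and uPAR family, 0 passed in either direction against MA9-c-Kit+ cells by limma, beside 7.24% of all genes. At an unadjusted p under 0.05 (limma) 3 of them passed, all lower in MA9-IL-34 cells. At that p 11.6% of all genes were lower and 14.4% higher. The same count was 2 of 16 (1 of them higher) for the meiosis list, 8 of 23 (6 higher) for the calcium list, 9 of 18 (6 higher) for the AFAP list and 3 of 12 (1 higher) for the serpin list. The median was -0.62, beside 0.01 over all genes. Ly6a, the stem cell antigen Sca-1, was at 13.7 ± 5.08 TPM in MA9-c-Kit+ and 6.15 ± 1.58 TPM for MA9-IL-34 (SD, n = 3 each; log2 fold change -0.998, adjusted p = 0.0491, limma), just short of the fold of 2. Against MA9-c-Kit- cells 4 were lower (beside 12.7% of all genes) and 0 were higher (beside 11.3%). They were Ly6a, Ly6c1, the urokinase receptor Plaur and the neutrophil antigen Cd177. Ly6a was at -0.98 without MA9-IL-34 replicate 1 and Ly6c1 at -0.93 without MA9-c-Kit- replicate 2, both short of the fold of 2. Tex101, the partner of LY6K in sperm, was at 0.39 TPM or less in every library.

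Of 23 tested genes of store-operated calcium entry, NFATc1 and osteoclasts, 2 were higher and 1 was lower against MA9-c-Kit+ cells. Of all genes, 3.86% were higher and 3.38% lower. The list is wider than the calcium entry and NFATc1 activity that Tmem178 dampens, and an effect of Tmem178 on these genes was not tested. Acp5, the osteoclast phosphatase TRAP, rose from 5.78 ± 0.0755 to 19.2 ± 1.82 TPM (SD, n = 3 each; log2 fold change 1.57, adjusted p = 0.00304, limma), and the kinase gene Btk from 73.7 ± 9.58 to 160.1 ± 14.7 TPM (SD, n = 3 each; log2 fold change 1.11, adjusted p = 0.000863, limma). Trem2, a myeloid receptor, fell from 9.05 ± 3.87 to 0.15 ± 0.121 TPM (SD, n = 3 each; log2 fold change -3.05, adjusted p = 0.000143, limma). Nfatc1 itself was at 19.6 to 24.7 TPM in MA9-c-Kit+ libraries and 19.6 to 25.0 TPM in MA9-IL-34 libraries, with overlapping ranges. The median was 0.02, beside 0.01 over all genes. Against MA9-c-Kit- cells 2 were higher (beside 11.3% of all genes) and 4 were lower (beside 12.7%).

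Of 18 tested genes of the AFAP family, Src kinases and podosomes, 3 were higher and 1 was lower against MA9-c-Kit+ cells. Of all genes, 3.86% were higher and 3.38% lower. The median of the list was 0.10, beside 0.01 over all genes. Besides Afap1 the Src-family kinase gene Fgr was among the higher genes, from 0.88 ± 0.246 to 3.36 ± 0.266 TPM (SD, n = 3 each). The podosome adaptor gene Sh3pxd2b was lower (log2 fold change -1.12, adjusted p = 0.0420, limma), and lost its call with no filter, with only the 2 groups compared, or without any 1 library other than MA9-c-Kit+ replicate 3 (adjusted p from 0.0556 to 0.132, limma). Against MA9-c-Kit- cells 1 was higher (beside 11.3% of all genes) and 6 were lower (beside 12.7%).

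Of 12 tested serpins and PEDF receptors, 1 was lower (beside 3.38% of all genes) and 0 were higher (beside 3.86%) against MA9-c-Kit+ cells. The lower gene was Serpina3g, a serpin of blood cells, at 58.8 ± 39.1 TPM in MA9-c-Kit+ and 3.86 ± 2.26 TPM for MA9-IL-34 (SD, n = 3 each). Its log2 fold change was -3.57 (adjusted p = 0.0102, limma). Unlike Serpinf1 it was low in MA9-c-Kit- cells too, at 7.23 ± 8.24 TPM (SD, n = 3). Pnpla2, a lipase that binds PEDF, was at 65.5 to 141.8 TPM in the 9 libraries. The median was -0.10, beside 0.01 over all genes. Against MA9-c-Kit- cells 2 were higher (beside 11.3% of all genes) and 2 were lower (beside 12.7%).

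Genes whose profile was nearest to each of the 6 were found by Pearson's r of log2(TPM + 1) over the 9 libraries, which mostly reflects the 3 group means and is a description. For Hormad2 they included Ralgds (r = 0.986) and Vdr (0.986), and for Ly6k they were Abcb1b (0.992), Aig1 (0.991) and Vdr (0.988). Vdr encodes the vitamin D receptor, and was at means of 3.84 TPM for MA9-c-Kit-, 6.397 TPM for MA9-c-Kit+ and 0.363 TPM for MA9-IL-34. For Tmem178 they were Daam1 (0.989), Abcb1b (0.986) and Cd24a (0.984). Abcb1b came up for 2 of the genes, and Vdr for 2. Abcb1b met both thresholds by which the 6 genes were chosen, so its likeness to them was in part set by the choice.

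Tmem243 was nearest to Extl3 (0.997), Dync1li1 (0.995) and Zfp385a (0.994). Serpinf1 was nearest to Tmem251 (0.995), Irf8 (0.991) and Uhrf1bp1l (0.990). Irf8, a transcription factor of monocytes and dendritic cells, was at means of 537 TPM for MA9-c-Kit-, 268 TPM for MA9-c-Kit+ and 6.75 TPM for MA9-IL-34. Afap1l1 was nearest to Nlrp10 (0.994), Hoxb4 (0.994) and Map3k20 (0.993). Hoxb4, a homeobox gene of blood stem cells, was at means of 5.18, 4.54 and 0.0433 TPM in the same order.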

How the data were processed

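RNA of 9 libraries in 3 groups was measured as TruSeq libraries per the labels, whereas the article's methods name a microarray. The deposited table holds TPM values that the authors computed. The aligner, annotation and build are not given in the sources used here. Depth is unknown, since no counts were used, and no tool for counts could be applied. One column, headed as replicate 3 of c-Kit cells with no sign, was taken as MA9-c-Kit- replicate 3, because both other groups have a column numbered 3. GENCODE M21 (GRCm38) gave loci and neighbors for 55450 identifiers, and 86 were not found.

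Genes at 1 TPM or more in at least 3 libraries (13722) were fitted as log2(TPM + 1) with limma 3.58.1 in R 4.3.3, using 3 group means over 9 libraries and a trended prior variance. Adjustment was by Benjamini-Hochberg within each comparison. Fold changes on this scale are understated for low genes. The step was tested on simulated data.

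Same-numbered libraries of MA9-c-Kit- and MA9-c-Kit+ deviated together (correlations 0.202, 0.239 and 0.443), which no label explains. Those with MA9-IL-34 did not (-0.000871, -0.0727 and -0.08, and -0.15, -0.279 and -0.0946). The main fit treated the libraries as unpaired, so its p-values leave this out, and a replicate block was fitted as an alternative.

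The members, gene lists and motifs were chosen with earlier results of these data known. Other genes are named if they meet both thresholds of the choice, lie nearest to a threshold, are a nearest or called neighbor, are among up to 4 called genes of a list with the smallest p, are the closest paralog, or are among the 3 most alike in profile. Abcb4, Gml, Gml2, Lepr, Pecam1, Pdgfrb, Csf1r, Cd68, C1qa, C1qc, Adgre1, Col1a1, Col1a2, Col3a1, Cdh5, Kdr, Nkg7, Dmtf1, Gm17189, 1500015A07Rik, Tex101, Nfatc1, Pnpla2, Xist, Hbb-bs and Il34 were named after their values were seen. Some genes that meet this rule are not reported here. Alternatives were the filter, pseudocount, scaling, samples fitted, replicate block, minimum fold, thresholds of the choice and leaving out each library.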

Additional observations from a re-analysis of the deposited data

How the results depend on the processing

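With only the adjusted p and no minimum fold, 5252 genes differed in the comparison of the 2 MA9 groups, 1772 against MA9-c-Kit+ and 6864 against MA9-c-Kit-, in place of 2033, 993 and 3297 with the fold of 2. With a library left out these were 1746 to 2311, 762 to 1140 and 3008 to 3465. The number of genes past both thresholds of the choice went from 12 to 35 at a floor of 5 TPM and 5 at a floor of 20 TPM, and it was 11 to 17 without 1 library, 17 being without MA9-c-Kit+ replicate 3. The 6 genes were among them each time a library was left out.

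Of the 6 genes, 2 to 4 were called in the comparison of the MA9 groups without 1 library, in place of 3, and Ly6k and Tmem178 accounted for the changes. With genes kept at 5 TPM in at least 3 libraries, fewer neighbors were tested, and 3 were lower in MA9-c-Kit+ cells, 1 was lower against MA9-c-Kit+ and 5 were lower against MA9-c-Kit-, in place of 6, 2 and 8 with Abcb1b counted. A pseudocount of 0.1 gave 4 lower against MA9-c-Kit+. Without 1 library, neighbors lower numbered 5 to 7, 2 to 3 and 8 to 10 in the 3 comparisons, and neighbors higher 1 to 3, 0 and 2 to 3. The 1 was without MA9-c-Kit- replicate 2 or MA9-c-Kit+ replicate 1.

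The replicate block gave 2076, 1007 and 3319 genes, 3 of the 6 genes called, and changed no call of a named gene. Fitted to the 2 MA9 groups alone, an alternative added after seeing the data, it gave 2082 genes and the same 3 calls. No called value and no value of the 6 genes changed direction under any alternative run. With pseudocounts of 0.1 and 0.5 the differences of the 6 genes from MA9-IL-34 cells grew, for Hormad2 against MA9-c-Kit+ from -5.22 to -7.47 and -6.03, since levels under 1 TPM weigh less with a larger pseudocount. Levels under 1 TPM rest on few reads, whose number the table does not keep.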

Other observations

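The opposite pattern, at 10 TPM or more in each MA9-IL-34 library and a mean under 1 TPM in each MA9 group, was met by 22 genes, of which 5 lie on the X chromosome. Xist was the most abundant of them (385 ± 62.1 TPM, SD, n = 3), followed by Xlr (132 TPM), Ces1d (59.4 TPM), a carboxylesterase, and Mtus2 (43.8 TPM). The other X-linked genes were Xlr4a, Rnf128 and Tceal8. The Y-linked genes Ddx3y, Eif2s3y, Kdm5d and Uty were at 0.1 TPM or less in all 9 libraries. For the other 2 groups the opposite pattern was met by 0 genes around MA9-c-Kit+ cells and 42 around MA9-c-Kit- cells. None of these genes was used in the comparisons above apart from Xist, and the genes were named after their values were seen.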
